A study of Brachypodium distachyon with 8 samples.

Results

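The loci described here are 437 annotated 3' UTRs (the untranslated ends of transcripts) of Brachypodium distachyon whose small RNA reads were commonest at 18 or 19 nt. They were chosen by measured values. Reads were summed over 8 libraries, identifiers with 40 or more reads were kept, and the 100 identifiers with most reads were left out. A locus was a member where reads of 15 to 19 nt formed the largest of 4 length classes (15 to 19, 20 to 23, 24, and 25 to 41 nt) and the commonest single length was 18 or 19 nt. Ties went to the shorter. The members came from 329 genes and were 2.42% of the 18091 identifiers that passed the filter outside the 100 most abundant, out of 30815 identifiers in all. In 26 members the 15 to 19 nt class tied with another class, and in 411 it was strictly the largest.

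Leaves of Bd21, a diploid inbred line, gave 1 library per condition. Stressed plants were heated at 42 °C in a growth chamber (1 h, 3 h), heated at 42 °C under water (1 h, 3 h), chilled at 4 °C (6 h, 24 h), or kept for 48 h in soil soaked with 300 mM NaCl. Unstressed plants were grown at 22 °C. The labels name no mutant, transgene or second line. How many plants went into a library, and which of the 2 kits named made it, is not given in the sources used here. The libraries were made from whole leaves, so fewer cells of a type and less RNA per cell cannot be told apart. With 1 library per condition every difference is between libraries, no p-value is given, and intervals cover counting error only.

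In plants the main small RNAs made by Dicer-like enzymes are 21, 22 and 24 nt long. The 21 nt class holds most microRNAs, which guide the cleavage of target transcripts. The 24 nt class mostly directs DNA methylation. Reads of 18 and 19 nt are shorter than these products, and in small RNA libraries they can include shortened forms of them and fragments of longer RNAs. The identifiers could not be joined to gene names (0 matched the RefSeq table for assembly Brachypodium_distachyon_v3.0), so no function, position or sequence is given for a member. The labelled tissue could not be checked against leaf markers for the same reason.

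Total 3' UTR reads ranged from 1730029 under salt to 4622303 after 1 h of heat in air. The members held 0.226% to 0.587% of the reads of the 7 stressed libraries, and 0.0618% of the unstressed reads (95% exact interval 0.0593% to 0.0644%). The 100 most abundant loci held 51.9% to 80.9% of the reads of the stressed libraries and 94.6% of those of the unstressed library, which stood apart. Outside those loci, the members' share was 1.68% under salt, 1.29% to 1.62% in the 4 heat libraries, 0.710% and 0.814% at 6 h and 24 h in the cold, and 1.14% without stress. The cold libraries were thus lowest and the salt library highest on that denominator.

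Most members were thinly covered and spread over many lengths. Pooled reads ran from 40 to 6046 with a median of 86, and a member had reads at 18 different lengths at the median (range 7 to 25). The commonest length was 18 nt in 290 members and 19 nt in 147. It held 14.3% of a member's reads at the median, with quartiles of 11.9% and 16.8%. Reads of 15 to 19 nt made up 42.9% at the median, those of 25 to 41 nt 30.7%, those of 20 to 23 nt 20.8%, and those of 24 nt 5.26%. The commonest length led the next by 2 reads at the median. It led by 2 reads or fewer in 247 of the 437 members, tied in 64 of these, and led by 10 reads or more in 31. Loci led by reads of 15 to 19 nt but commonest at 15 to 17 nt were close on these measures: 4243 loci had a median of 16.8% at the commonest length and a median lead of 4 reads. Loci led by 20 to 23 nt reads and commonest at 21 nt had 43.2% and a lead of 49 reads over 968 loci, at a higher depth (median 275 reads). Over all 18191 loci with 40 or more reads the medians were 31.8% and 20 reads.

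**Figure D1:**
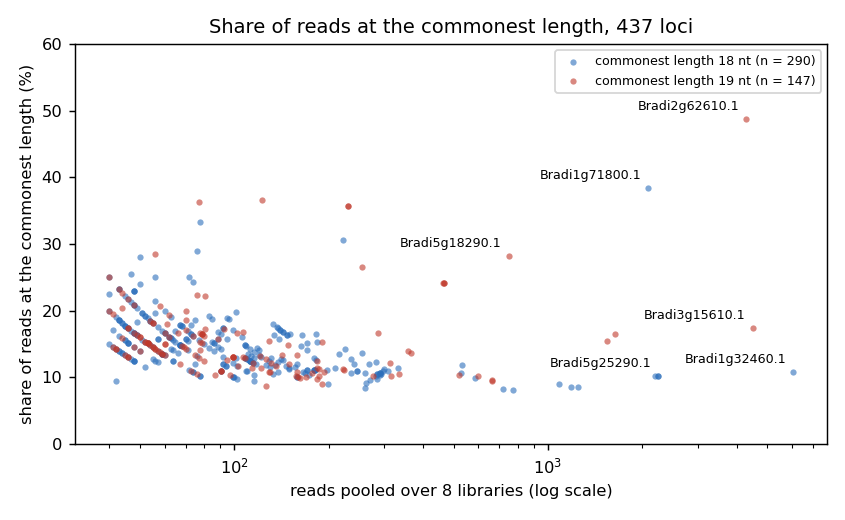
Share of a member's pooled reads at its commonest length (y, percent) against its reads pooled over the 8 libraries (x, log scale), 1 point per member, coloured by the commonest length (290 members at 18 nt, 147 at 19 nt). Most points lie between 10% and 20%, and Bradi2g62610.1 with 48.7% and Bradi1g71800.1 with 38.4% lie above the other well-covered members.

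At loci chosen by the rule on part of the libraries, the average peak was weak in the other libraries. The label of loci peaking at 18 or 19 nt was not borne out there. To measure lengths in libraries that had no part in the choice, the rule was applied to the 4 heat libraries alone and to the 4 other libraries alone, at loci with 20 or more reads in each set. The loci averaged were those chosen on each set, and not the 437 members. The sets differ in stress, so lengths that change with stress cannot be told apart from a peak that does not repeat. Of 16090 such loci, the heat libraries chose 418, and 38 of these (9.09%) met the rule again in the cold, salt and unstressed libraries, against 2.47% of all 16090 loci. Leading by 15 to 19 nt reads was kept more often, at 202 of the 418 loci, against 22.5% of all loci. In the heat libraries the chosen loci averaged 12.7% of reads at 18 nt and 10.5% at 19 nt. In the 4 libraries not used, the same loci averaged 6.27% at 18 nt and 5.69% at 19 nt, between 7.09% at 17 nt and 5.30% at 20 nt, and 15 nt was higher still at 9.70%. These averages decline with length from 15 to 20 nt and show no rise at 18 or 19 nt.

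Choosing on the other 4 libraries gave the same picture. Of 398 loci chosen there, the same 38 (9.55%) met the rule again in the heat libraries, against 2.60% of all loci, and 70.4% were again led by 15 to 19 nt reads, against 34.1%. Their average shares in the heat libraries were 8.53% at 17 nt, 6.42% at 18 nt, 6.39% at 19 nt and 5.11% at 20 nt, against 13.4% at 18 nt in the libraries that chose them. Both 18 and 19 nt shares remained above those of all 16090 loci, which averaged 3.26% and 3.04% in the libraries without heat, and 3.53% and 3.36% in the heat libraries. The commonest length was again 18 or 19 nt at 13.4% of the loci chosen on heat, against 4.23% of all loci. For the other choice these shares were 12.1% and 3.78%. Of the lengths from 15 to 21 nt, the chosen loci exceeded all loci by the largest factors at 18 and 19 nt, under both choices. Since the average shares themselves show no rise there, the loci are called members by their rule below, and not loci with an established 18 to 19 nt product.

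**Figure D2:**
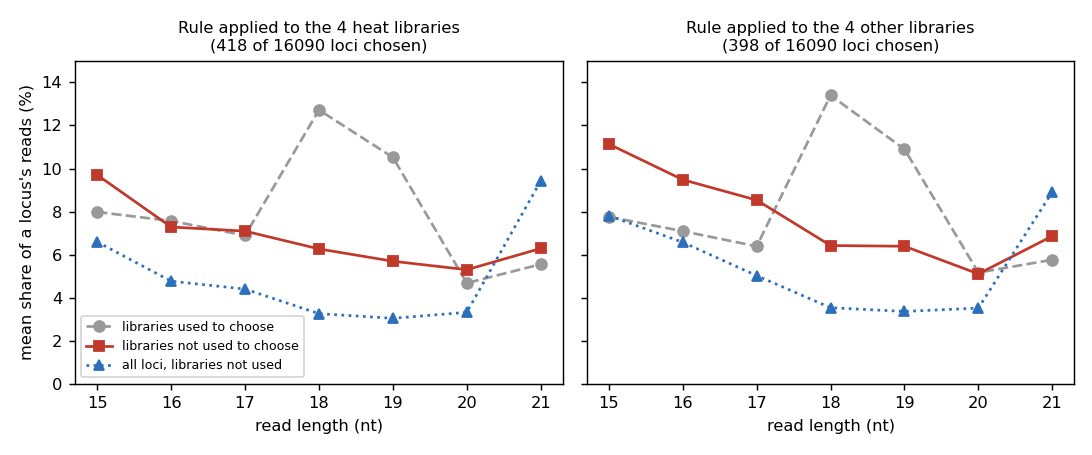
Mean share of a locus's reads (y, percent) at each length from 15 to 21 nt (x), for loci chosen by the rule on the 4 heat libraries (left, 418 loci) or on the 4 other libraries (right, 398 loci). Dashed grey lines are the libraries used to choose, red lines the libraries not used, and dotted blue lines all 16090 loci in the libraries not used. The rise at 18 and 19 nt is seen in the grey lines and is absent from the red lines.

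A small set met the rule in both sets of libraries. It held 38 loci from 31 genes, 36 of them members, and in 28 the commonest length was the same in both sets. The loci of this set with most reads were Bradi3g15610.1 (4485 reads), Bradi2g62610.1 (4278), the 3 transcripts of Bradi5g25290 (2199 to 2248) and Bradi5g18290.1 (750). The first 3 of these genes also belong to the most abundant members. The 6 members with most reads held 26.3% of the members' 81610 reads. They came from 4 genes, because the transcripts of Bradi5g25290 have the same or nearly the same counts.

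Bradi2g62610.1 had the sharpest peak of the 437 members. It had 2084 reads of 19 nt, 48.7% of its 4278, and 600 at the next length, 17 nt. The 19 nt share was 61.4% and 40.2% at 1 h and 3 h in hot air, and 58.7% and 42.6% after the same times in water. It was 25.3% and 29.5% at 6 h and 24 h in the cold, 44.2% under salt and 69.0% without stress (64.1% to 73.6%). In all 8 libraries 19 nt was its commonest length, and the cold libraries had the lowest shares. Its raw reads were 1214, 805, 312 and 598 in the heat libraries in that order, 273 and 438 in cold, 251 under salt and 387 without stress. Bradi2g62610.1 also carried much of the members' unstressed signal: reads of 18 and 19 nt were 17.8% to 25.4% of the members' reads in the stressed libraries, and in the unstressed library 31.8% with this locus and 22.4% without it. At the other loci with reads the share lay between 3.35% and 6.70%, a contrast that the choice of members fixed. The members' reads were led by the 15 to 19 nt class in 7 libraries, and under salt by the 25 to 41 nt class, with 37.6% against 35.6%.

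Bradi1g71800.1, named after its values were seen, had 2 peaks. Of its 2085 reads, 38.4% were 18 nt and 562 reads were 24 nt, with 11.5% at 21 nt and 1.01% of 25 nt or more. The 18 nt share was 41.3% at 6 h in the cold (37.4% to 45.2%) and 58.1% at 24 h (53.7% to 62.4%). It was 30.3% and 12.7% at 1 h and 3 h in hot air, 15.8% and 26.6% at 1 h and 3 h in hot water, 28.3% under salt and 46.4% without stress. The commonest length was 18 nt in the cold libraries, after 1 h of heat in air and without stress, and 24 nt in the 4 others. Reads at Bradi1g71800.1 were 635 and 511 in the cold libraries, 106 to 241 in the 5 other stressed libraries and 97 without stress, so raw reads were most numerous in cold. On the scaled level used for comparisons it had 25.97 and 22.3 scaled reads per 1000000 at 6 h and 24 h in the cold, and 26.6 without stress, which is no higher in cold.

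Bradi5g18290.1, also named after its values were seen, was made of short reads, 80.1% of 750 being 15 to 19 nt. Its largest lengths were 19 nt with 28.1%, 18 nt with 21.1% and 16 nt with 20.4%. Its 19 nt share lay between 18.97% and 43.9% over the 8 libraries, and 19 nt was commonest in 6 of them. The exceptions were 18 nt after 3 h of heat in water and 16 nt without stress, where the locus had 33 reads.

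Bradi3g15610.1 had peaks at 19 nt (17.4%), 15 nt (15.5%) and 24 nt (11.1%). Its 19 nt share was 27.2% and 14.5% at 1 h and 3 h in hot air, 6.81% and 24.9% after 1 h and 3 h in water, 17.2% and 19.8% at 6 h and 24 h in the cold, 8.65% under salt and 22.7% without stress. Under salt its commonest length was 32 nt, and only 27.9% of its 1041 reads there were of 15 to 19 nt. Of its counts per library and length 95.6% were even, against 63.2% over all loci with 40 or more reads. Intervals at such loci would be too narrow if counts were doubled, which was not tested.

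Bradi1g32460.1 had the most reads, 6046, and no distinct peak. Its 18 nt reads were 10.8% of the total, followed by 9.1% at 15 nt. The commonest length was 18 nt in 3 libraries, 15 nt or 20 nt in 2 each and 19 nt in 1. Bradi5g25290.1 was as broad, with 10.3% at 18 nt and 35.0% of reads at 25 nt or more. At the other end from Bradi2g62610.1, Bradi2g21120.2 had 8.12% of 776 reads at its commonest length, the lowest share of any member.

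At the edge of the rule the classes were nearly equal. Bradi2g03280.1, just inside, had 39.2% of reads at 15 to 19 nt and 38.9% at 25 to 41 nt, and Bradi3g14980.1 had 39.4% and 39.0%. Just outside lay 2 transcripts of Bradi3g26930, of which other transcripts are members. Bradi3g26930.2 had 34.9% and 35.3%, and Bradi3g26930.5 had 34.8% and 35.2%. Such splits within a gene were common: of 96 member genes with 2 or more identifiers that passed the filter, 33 had an identifier that was not a member. In all, 178 members shared their gene with another member, and 76 had counts equal to those of another identifier of their gene at each library and length.

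For levels, libraries were scaled with trimmed means of M-values (TMM, M being a log ratio) against the unstressed library. The effective size of a stressed library was 3.56 to 9.20 times its total on this scale (1.83 to 3.20 log2 units), the unstressed total being kept as it was. Scaling by totals instead moves all loci together: their median log2 ratio to unstressed is then 2.70 and 3.41 at the 2 times of cold, 2.25 and 2.83 in hot air, 2.05 and 2.46 in hot water and 3.14 under salt. Counts of calls under total scaling are therefore given beside the share of all loci. A locus was called higher or lower where the whole exact 95% interval of the ratio of scaled reads lay beyond 2-fold, at both times for stresses with 2 times. Folds written as "at least" set 0 reads to a floor of 3. They are not interval bounds, and the exact 95% bounds lie nearer to no change. Members had a median of 2 reads in the unstressed library and 184 had 0 there. The medians in the stressed libraries were 5 to 18 reads.

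Heat was compared with cold without the unstressed library, using 4 heat and 2 cold libraries. A call also required each heat library to lie on the same side of both cold libraries. Of the 437 members, 61 (13.96%, from 43 genes) were higher in heat, against 7.39% of all 18191 loci tested, and 4 (0.915%) were lower, against 1.59%. The members' median log2 ratio of heat to cold was 0.86, against 0.08 over all loci tested, and 79.4% of members had a ratio above 1, against 53.7% of all loci. Loci commonest at 15 to 17 nt gave 15.9% higher and 1.04% lower, and those commonest at 21 nt 2.27% higher and 3.51% lower. These shares were not tested against each other, and the members' share was near that of the 15 to 17 nt loci. Under scaling by total reads 23 members were higher and 11 lower, so that 67.6% of called members were higher in place of 93.8%. These were 5.26% and 2.52% of members, against 3.22% and 8.73% of all loci. Counting only the 15 to 19 nt class, 31 members were called higher (7.09%, against 6.34% of all loci) and 1 lower (0.229%, against 0.874%), so the higher share was then near the background. With counts halved 42 were higher (9.61%, against 5.55%). With 200 or more reads required there were 16 higher and 0 lower, with no share of all loci given. Lengths in the heat and cold libraries had a part in choosing the members. The choice by length was therefore repeated on the salt and unstressed libraries alone. The read minimum was still taken over all libraries, so heat and cold reads still had a part in which loci could be chosen. No separate minimum was set for the salt and unstressed libraries, so a locus could be chosen on few reads there. Of 696 loci chosen there, 86 were higher in heat (12.4%, against 7.39% of all loci) and 13 lower (1.87%, against 1.59%). The share of lower calls was thus below that of all loci for the members and above it for this choice.

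The 2 members called with the widest margin had almost no reads outside heat. Bradi1g11630.1 had 270 and 249 reads at 1 h and 3 h in hot air, 48 and 32 at 1 h and 3 h in hot water, and 0 in the cold, salt and unstressed libraries. Against a floor of 3 reads over both cold libraries it was at least 146-fold higher in heat, with an exact 95% lower bound of 119-fold. Bradi3g60100.1 had 521, 351, 206 and 156 reads in the heat libraries in the same order, 0 and 4 in cold, 4 under salt and 0 without stress. It was 226-fold higher in heat than in cold (95% interval 88.1 to 831). The call itself required each heat library to lie above both cold libraries. At both loci each heat library also lay above the salt and unstressed libraries, and no share of all loci is given for this. Both had broad lengths, with 10.2% of reads at 19 nt for Bradi1g11630.1 and 8.62% at 18 nt for Bradi3g60100.1, and 30.2% and 34.8% of reads at 25 nt or more. Since these loci had almost no reads elsewhere, their place among the members rests on the heat libraries.

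Bradi1g66530.1 was named after its values were seen and also had no reads outside heat. It had 14, 34, 12 and 16 reads in the heat libraries and 89.5% of its reads at 15 to 19 nt. Its place among the members, like that of the loci above, rests on the heat libraries. Among the 4 lower members, Bradi1g23110.1 had 2, 4, 0 and 0 reads in heat and 14 and 18 in cold, 7.28-fold lower (3.00 to 21.28). Bradi2g22400.1 had 14, 8, 4 and 2 reads in heat and 30 and 40 in cold, 3.41-fold lower (2.17 to 5.49). Both lower loci rest on few reads, and their pooled counts were even at each length. With counts halved 1 member was called lower in heat against cold (0.229%, against 1.23% of all loci).

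**Figure D3:**
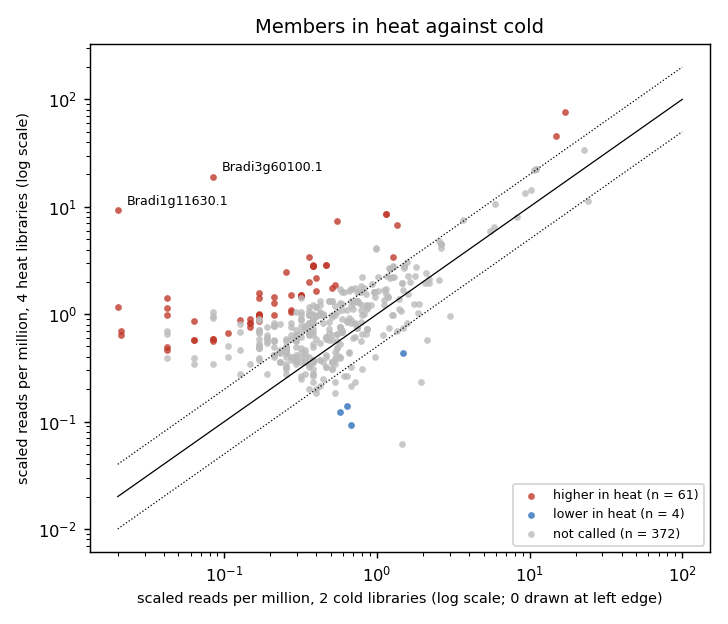
TMM-scaled reads per 1000000 of each member in the 4 heat libraries together (y, log scale) against the 2 cold libraries together (x, log scale, with loci at 0 in cold drawn at the left edge). Red points are the 61 members called higher in heat, blue the 4 called lower, grey those not called, the solid line marks equality and the dotted lines 2-fold. Bradi1g11630.1 and Bradi3g60100.1 stand apart at the upper left.

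Against the unstressed library few members were called. The median log2 ratio of the members was 0.69 and 0.74 at 1 h and 3 h in hot air with 0.5 added to each count, but -0.61 and -0.39 with counts under 3 set to 3. Over all loci tested the medians were 0.25 and 0.27, and -0.25 with the floor at both times. For the 2 times of heat in water the members had 0.66 and 1.37, or -0.51 and -0.01 with the floor, against 0.21 and 0.30, or -0.34 and -0.22, over all loci. Under salt they had 1.35, or 0.05 with the floor, against 0.38, or -0.10, over all loci. In cold the members' medians were -0.11 and -0.15, or -1.26 and -1.07 with the floor, against 0.15 and 0.21, or -0.43 and -0.40, over all loci. The signs of the heat medians therefore turn on how 0 reads are treated.

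Heat in air gave 5 higher members (1.14%, against 1.70% of all loci tested) and 3 lower (0.686%, against 1.56%). Bradi3g60100.1 was at least 34.3-fold and 17.9-fold higher at 1 h and 3 h, and Bradi1g11630.1 at least 17.8-fold and 12.7-fold higher, each against a floor of 3 reads in the unstressed library. With counts halved and the same floor these values were 17.1, 8.95, 8.88 and 6.35. Bradi5g13920.1 lay 12.7-fold below unstressed at 1 h (3.66 to 55.4) and 10.9-fold below at 3 h (3.59 to 36.5), from 4 and 6 heat reads and 10 unstressed ones. For Bradi1g21720.1 the level at 1 h lay 5.62-fold below unstressed (3.96 to 8.01) and at 3 h 3.49-fold below (2.58 to 4.69), with 64 and 133 reads in heat against 71 without stress. Under total scaling Bradi5g13920.1 was 0.315 and 0.543 times, and Bradi1g21720.1 0.710 and 1.69 times, the unstressed level, while all loci moved up as given above. Then 105 members were higher (24.0%, against 34.6% of all loci) and 0 lower (against 0.104%). Choosing members on the libraries outside the comparison gave 15 of 543 higher (2.76%) and 1 lower (0.184%), so the higher share then lay above that of all loci and not below it.

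Heat in water gave 16 higher members (3.66%, against 1.72%) and 4 lower (0.915%, against 1.51%). The 16 came from 10 genes. Bradi3g60100.1 was at least 36.2-fold and 12.2-fold higher at 1 h and 3 h. Bradi3g26930.1 had 80 and 166 reads against 2 without stress, 21.1-fold (5.65 to 177) and 19.5-fold (5.31 to 162) higher. Bradi1g21720.1, with 22 and 51 reads in heated leaves against 71, lay 6.12-fold below unstressed at 1 h (3.75 to 10.4) and 5.93-fold below at 3 h (4.08 to 8.67), or at 0.581 and 0.756 of the unstressed level when totals set the scale. Bradi5g13920.1 had 0 reads at 1 h and 6 at 3 h where unstressed leaves had 10, which is a fall of at least 6.32-fold and one of 7.10-fold (2.34 to 23.8). With totals as the scale its level at 3 h was 0.631 times the unstressed level. With counts halved 5 members were higher (1.14%, against 0.797% of all loci) and 1 lower (0.229%, against 1.07%). The 15 to 19 nt class by itself gave 2 (0.458%, against 0.621%) and 3 (0.686%, against 0.665%). Under total scaling there were 95 (21.7%, against 23.2%) and 0 (against 0.0880%).

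Cold gave 0 higher members (against 0.704% of all loci tested) and 13 lower (2.97%, against 2.20%), from 9 genes. Bradi2g62610.1, with 273 and 438 reads in the cold against 387, lay 9.52-fold below unstressed at 6 h (8.13 to 11.2) and 5.57-fold below at 24 h (4.85 to 6.40). Bradi2g27140.1 had 43 and 4 reads in cold against 44 without stress, 6.87-fold (4.41 to 10.7) and 69.3-fold (25.2 to 266) lower. With totals as the scale, 89 members were higher (20.4%, against 48.9% of all loci) and 0 lower (against 0.0605%). Bradi2g62610.1 was then 0.615 and 1.65 times the unstressed level, below the typical locus, whose median rose as given above, and Bradi2g27140.1 was 0.852 and 0.133 times. With counts halved 5 were lower (1.14%, against 1.495% of all loci) and 0 higher (against 0.22%). With members chosen on the 5 libraries outside the comparison 4 were higher (0.83%, against 0.704%) and 5 lower (1.04%, against 2.20%). The share of lower calls thus lay below that of all loci under both of these settings, and not above it. With reads of 15 to 19 nt alone it stayed above, with 11 lower (2.52%, against 1.43%).

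Salt, sampled at 48 h only, gave 20 higher members (4.58%, against 4.20%) and 8 lower (1.83%, against 3.45%). The 20 came from 11 genes. Bradi3g08690.1 had 97 reads and Bradi1g35780.4 had 94, where unstressed leaves had 0, so salt was at least 10.0-fold higher at one and 9.72-fold at the other. Bradi2g27140.1 had 6 reads against 44, 23.6-fold lower (10.0 to 67.9), and Bradi2g39200.1 had 0 against 8, at least 8.60-fold lower. Under total scaling, which moves all loci up, Bradi2g27140.1 was 0.287 times the unstressed level. Bradi3g08690.1 and Bradi1g35780.4 were then at least 68.1-fold and 66.0-fold higher. With counts halved 7 were higher (1.60%, against 1.297% of all loci) and 5 lower (1.14%, against 1.97%). Total scaling gave 288 (65.9%, against 64.6%) and 0 (against 0.143%). Reads of 15 to 19 nt alone gave 5 higher (1.14%, against 0.803%) and 13 lower (2.97%, against 2.17%). Lower calls then outnumbered higher ones, as they did over all loci. The 4 comparisons share the unstressed library, so their calls are not independent of each other.

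**Figure D4:**
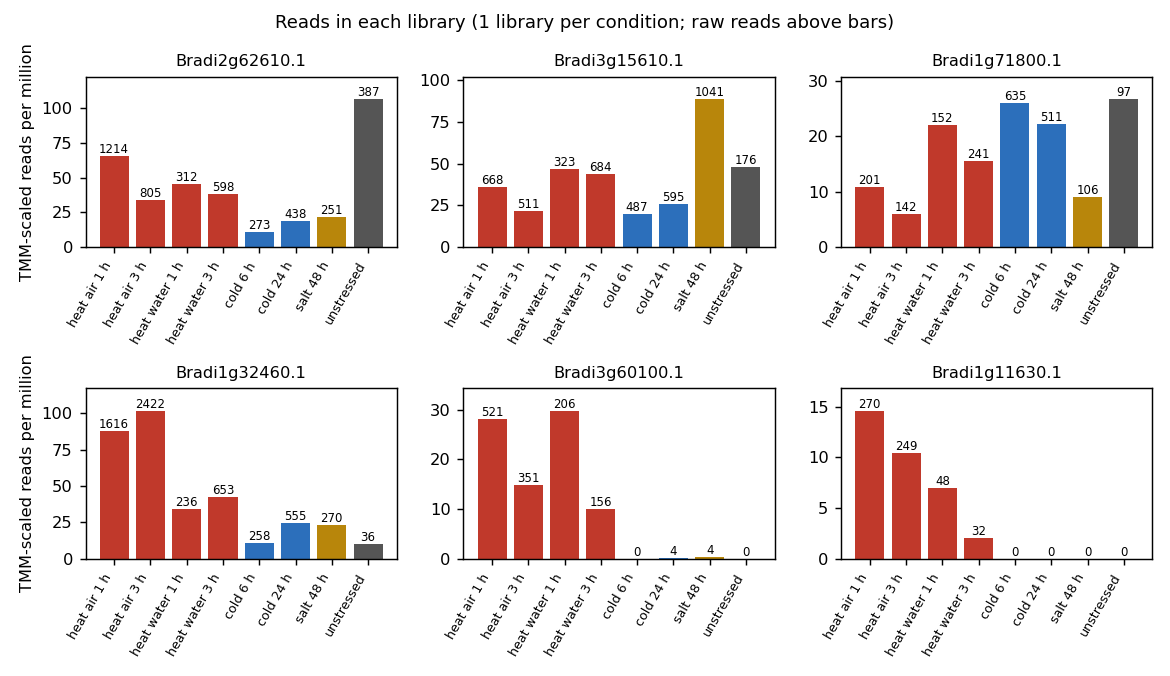
TMM-scaled reads per 1000000 (y, linear from 0) in each of the 8 libraries (x, 1 library per condition, no error bars) for 6 members, with raw reads above the bars. Bradi2g62610.1 and Bradi1g71800.1 are highest in the unstressed library, Bradi3g15610.1 under salt, and Bradi1g32460.1, Bradi3g60100.1 and Bradi1g11630.1 in heat libraries.

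Bradi1g32460.1 was high in heat in air, with 1616 and 2422 reads, and had 236 and 653 in heat in water, 258 and 555 in cold, 270 under salt and 36 without stress. On the TMM scale these were 87.5 and 102 scaled reads per 1000000 in heat in air, 34.2 and 42.1 in heat in water, 10.6 and 24.2 in cold, 22.99 under salt and 9.88 without stress. It was called higher in heat in air and in heat in water against unstressed. The heat libraries lay above the 4 others on this scale.

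Times and heating modes were compared within pairs of libraries. Cold at 24 h against 6 h gave 18 higher members (4.12%, against 2.85% of all loci) and 8 lower (1.83%, against 2.17%). Bradi5g16320.1 had 86 reads at 24 h and 2 at 6 h, 45.8-fold higher (12.3 to 384), and Bradi2g27140.1 had 4 and 43, 10.1-fold lower (3.67 to 38.7). Heat in air at 3 h against 1 h gave 13 higher (2.97%, against 1.95%) and 7 lower (1.60%, against 2.56%). Bradi3g09460.1 had 18 reads at 3 h and 0 at 1 h, at least 4.66-fold higher, and Bradi3g33150.1 had 4 and 34, 11.0-fold lower (3.91 to 42.5).

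Heat in water at 3 h against 1 h gave 16 higher members (3.66%, against 2.11%) and 4 lower (0.915%, against 2.13%). Bradi3g30730.1 had 32 reads at 3 h and 0 at 1 h, at least 4.75-fold higher, and Bradi3g60100.1 had 156 and 206, 2.97-fold lower (2.40 to 3.67). The excess of higher calls between times held under some settings and not under others. With counts halved there were 9 higher and 2 lower between times of chilling (2.06% and 0.458%, against 1.58% and 1.28% of all loci). There were 0 and 3 in hot air (0.686% lower, against 0.979% higher and 1.63% lower of all loci). In hot water there were 0 and 1 (0.229% lower, against 0.808% and 1.29%). With 200 or more reads there were 4 and 5, 5 and 5, and 2 and 2, with no share of all loci given. In hot air, reads of 15 to 19 nt alone gave 3 and 17 (0.686% and 3.89%, against 1.35% and 2.01% of all loci), and members chosen on the libraries outside the comparison 10 and 16 (1.80% and 2.88%, against 1.95% and 2.56%), so that lower calls outnumbered higher ones. In cold these settings gave 15 and 7 (3.43% and 1.60%, against 1.83% and 0.808%), and 19 and 11 (4% and 2.32%, against 2.85% and 2.17%). In hot water they gave 9 and 2 (2.06% and 0.458%, against 1.49% and 0.517%), and 14 and 2 (3.28% and 0.468%, against 2.11% and 2.13%). Higher calls thus stayed more numerous in cold and in hot water. Under total scaling the time comparisons gave 40 higher and 2 lower in cold, 31 and 2 in hot air, and 24 and 0 in hot water. The balance moved toward the later time, as it did for all loci (7.26% and 0.770%, 6.22% and 1.15%, 3.91% and 1.37%).

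Water was also set against air at matched times. At 1 h, 10 members were higher in water (2.29%, against 2.04%) and 6 lower (1.37%, against 1.78%). Bradi3g51010.1 had 31 water reads and 10 air reads, 8.29-fold higher (3.96 to 18.95), and Bradi5g24230.1 had 0 and 40, at least 4.99-fold lower. At 3 h, 21 were higher in water (4.81%, against 3.09%) and 4 lower (0.915%, against 1.89%). Bradi3g47520.1 had 18 water reads and 0 air reads, at least 9.21-fold higher, and Bradi5g24230.1 had 0 and 22, at least 4.78-fold lower. Total scaling gave 7 each way at 1 h, against 1.45% higher and 2.39% lower over all loci, and 9 higher with 12 lower at 3 h, against 1.52% and 4.30% of all loci at 3 h. At 1 h lower calls outnumbered higher ones with reads of 15 to 19 nt alone (3 and 6). These were 0.686% and 1.37% of members, against 0.621% and 1.297% of all loci, where lower calls also outnumbered higher ones. Members chosen on the libraries outside the comparison gave 4 and 7 (0.826% and 1.45%, against 2.04% and 1.78% of all loci). With 200 or more reads there were 2 and 3, with no share of all loci given. At 3 h reads of 15 to 19 nt alone gave 24 and 3 (5.49% and 0.686%, against 2.85% and 1.55%). The choice on the libraries outside the comparison gave 23 and 8 (4.98% and 1.73%, against 3.09% and 1.89%). Requiring 200 or more reads gave 3 and 3, again with no share of all loci.

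**Figure D5:**
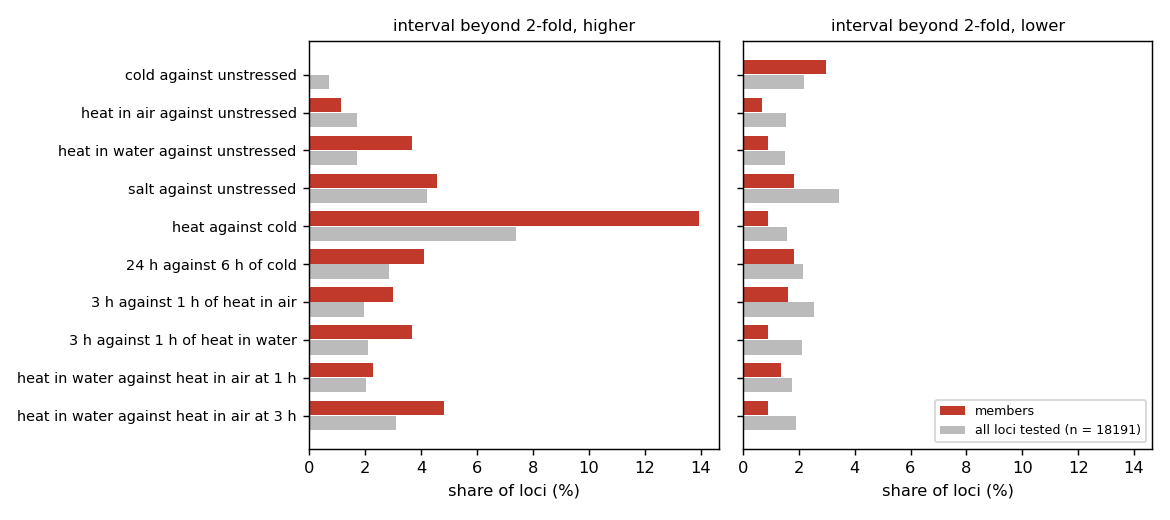
Share of loci (x, percent) called higher (left) or lower (right) in each of 10 comparisons (y), for the 437 members (red) and for all 18191 loci tested (grey), under TMM scaling. The widest gap is in heat against cold, with 13.96% of members and 7.39% of all loci higher.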

How the data were processed

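Small RNA reads at 3' UTRs were measured in 8 libraries of 1 condition each. The deposited values are raw counts per identifier and read length, per the file headers, from 15 to 41 nt. The header is shifted for read length, which was taken from the column that holds it. Per the submitters' processing notes, the tools named are bedtools 2.10.0, Bowtie 0.12.7 and CASAVA. Genome build, strand and treatment of multiply matching reads: not given in the sources used here. The files hold only 3' UTR reads, so totals are not sequencing depth.

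Scaling used TMM (30% of log ratios and 5% of mean levels trimmed) on the 18191 identifiers with 40 or more reads, computed in Python 3.11.15 (scipy 1.17.1, pandas 2.3.3, numpy 2.4.6) and checked against edgeR 4.0.16. Intervals are exact (Clopper-Pearson), at 95%. Figures used matplotlib 3.10.9. Against 0 reads, folds use a floor of 3 reads and are written "at least". The floor is a convention and not an interval bound, and the exact 95% bound nearest to no change is weaker. For Bradi3g60100.1 at 1 h of heat in air that bound was 27.8, against 34.3 with the floor. Intervals cover no more than counting error, since amplified reads are not independent molecules.

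Members, lists and tests were chosen with earlier results of these data known. Named loci are the 6 with most reads, the 2 per direction with the farthest interval bound for each stress and for heat against cold, 1 per direction for other comparisons, the sharpest and broadest members, and those at the edge of the rule. Others are marked where named. Alternatives changed the scaling, read minimum, identifiers per gene, read lengths and libraries used to choose members. Where members were chosen on libraries outside a comparison, only the lengths came from those libraries. The read minimum and the most abundant identifiers left out were still set on all libraries, including those compared. Counts halved, strict class leads, libraries left out and the choice on heat and other libraries were added after seeing the data.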

Additional observations from a re-analysis of the deposited data

How the results depend on the processing

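No paired analysis was possible because each condition has 1 library. Median-of-ratios scaling kept all 15 counts of calls within 1.5 times of those reported. Under total scaling cold gave 89 higher and 0 lower members, heat in air 105 and 0, heat in water 95 and 0, salt 288 and 0, and heat against cold 23 and 11. The 2 times differed at 42 members in cold and 33 in heat in air. With no filter on reads 6 members were lower in heat in air and 13 under salt. With 200 or more reads, which 66 members had, 4 were lower in cold, 1 in heat in air and 2 in heat in water. Under salt 11 were higher, and in heat against cold 16 were higher and 0 lower. The time comparisons gave 9, 10 and 4 for cold, air and water, of which cold had 4 higher and 5 lower. Water against air gave 5 and 6 at 1 h and 3 h, with 3 higher and 3 lower at 3 h. With 1 identifier per gene 10 were higher in heat in water and 11 under salt. No share of all loci is given for changes of read minimum, identifiers per gene, strict class leads or libraries left out. Counts under those settings are therefore not set against a background.

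Reads of 15 to 19 nt alone gave 3 higher members in heat in air (0.686%, against 0.891% of all loci) and 2 in heat in water (0.458%, against 0.621%). They gave 5 higher and 13 lower under salt (1.14% and 2.97%, against 0.803% and 2.17%), and 31 higher and 1 lower in heat against cold. There were 11 between times in water, 9 of them higher, and 9 between water and air at 1 h, 3 of them higher, with shares as given above. Members chosen on libraries outside the comparison gave 4 higher and 5 lower in cold and 15 and 1 in heat in air, with shares as given above. They gave 5 lower under salt (1.17%, against 3.45% of all loci) and 13 lower in heat against cold (1.87%, against 1.59%). Halved counts gave 5 lower in cold, 5 higher and 1 lower in heat in water, 7 and 5 under salt, and 11, 3 and 1 between times of cold, air and water, with shares as given above. They gave 3 higher in heat in air (0.686%, against 0.814% of all loci) and 1 lower in heat against cold (0.229%, against 1.23%). Between water and air they gave 5 at 1 h (0.915% higher and 0.229% lower, against 0.913% and 0.841%). At 3 h they gave 11 (2.06% and 0.458%, against 1.66% and 1.14%). A strict lead of the short class gave 3 higher in heat in air. Leaving out each heat or cold library in turn gave 48 to 79 higher and 1 to 8 lower members in heat against cold. The fewest higher, 48, came without heat in water at 3 h. Lower members were 1 without heat in air at 3 h, 8 without cold at 6 h and 2 without cold at 24 h. Under total scaling Bradi2g62610.1 at 24 h of cold (1.65 times unstressed) and Bradi1g21720.1 at 3 h of heat in air (1.69 times) lay above 1, but all tested loci then had medians of 3.41 and 2.83 on the log2 scale, so the sign follows the shift of all loci. The cause of the other moves was not tested, apart from the fewer members or reads that some alternatives keep by construction.

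Membership itself moved. Averaging each library's length shares gave 576 members, 166 of them shared with the 437, and leaving out 1 library gave 415 to 500, sharing 290 to 412. Members had a median of 86 reads over the 8 libraries.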

Other observations

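Even counts were in excess at the members. Of their counts per library and length 78.3% were even, with 10978 counts of 2 against 2413 of 1. Over all loci with 40 or more reads 63.2% were even, over loci commonest at 15 to 17 nt 76.8%, and over loci commonest at 21 nt 54.5%. Among counts of 9 or more 60.8% were even at the members and 54.96% over all loci. At loci commonest at 15 to 17 nt it was 66.1%, above the members, and at those commonest at 21 nt 50.1%. In 43 members all counts were even.

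By identifier, 11.7% of members carried the prefix Bradi5g, against 8.81% of all loci tested, and 26.1% carried Bradi1g, against 29.8%. Of the members, 6 (1.37%) had a scaffold identifier in place of a chromosome number, against 0.121% of all loci tested.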
